A study of Mus musculus with 8 samples.

Results

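The 9 genes described here encode enzymes that make nucleotides, and they were taken by name (Tyms, Rrm1, Rrm2, Tk1, Dut, Impdh2, Ctps, Paics and Umps) from a table of 55359 genes, in which all 9 were found. RNA was measured in 8 cultures of mouse peritoneal mast cells (PMCs), which are mast cells grown out from the peritoneal cavity with IL-3 and SCF. One library each came from PMC-303 and PMC-306, lines that grew out spontaneously from ageing cultures, and 6 came from primary WT PMCs, of which 3 were from female and 3 from male mice. All 8 cultures came from wild-type mice of the mixed strain C57BL/6x129/Sv and were left untreated. The lines themselves are not genetically wild-type, as the paper reports chromosome changes in both of them. The labels give no sex for the lines and no age for the mice, and the paper gives a male karyotype for PMC-306. Each line stands for 1 event of outgrowth. The lines were kept in less FCS and less SCF than the primary cultures, so that medium and outgrowth cannot be told apart in these libraries. The paper also grew PMC-306 with the FCS and SCF of the primary cultures. It reports no effect on Cdkn2a, Arf, protease or Mrgprb2 mRNA, and names none of the 9 members there.

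Cells build purine and pyrimidine nucleotides from small precursors (de novo synthesis) or recover them from bases and nucleosides (salvage). Ribonucleotides serve RNA synthesis and metabolism at all times, whereas the deoxyribonucleotides for DNA are made mainly while a cell copies its genome. In the mouse, the genes for the enzymes of that last step are known to be transcribed around S phase, and resting mast cells have little need of them. Of the 9 members, 5 act in deoxyribonucleotide supply. Rrm1 and Rrm2 encode the large and the small subunit of ribonucleotide reductase, which turns ribonucleotides into deoxyribonucleotides. Tyms (thymidylate synthase) makes dTMP from dUMP, Tk1 (cytosolic thymidine kinase) makes it from thymidine, and Dut (dUTPase) removes dUTP and yields dUMP. The other 4 act in ribonucleotide synthesis. Paics catalyses consecutive steps of purine synthesis, Impdh2 starts the branch from IMP to guanine nucleotides, Umps makes UMP, and Ctps (CTP synthase) makes CTP from UTP.

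The members lie on 8 chromosomes. In GENCODE release M39 on GRCm39, Rrm1 is at chr7:102090890-102119709 and Rrm2 at chr12:24757811-24764145, both on the plus strand. Tyms is at chr5:30263198-30278633 and Tk1 at chr11:117702770-117717042, both on the minus strand, and Dut is at chr2:125089110-125100966 on the plus strand. Impdh2 is at chr9:108437485-108442783 and Paics at chr5:77099139-77116370 on the plus strand, and Ctps, named Ctps1 in that release, at chr4:120395395-120471131 and Umps at chr16:33774077-33787429 on the minus strand. All 9 are protein-coding, and no other gene on the same strand shares an exon with them. On the opposite strand, the lncRNA gene Gm59512 covers 43.3% of the exon bases of Rrm2, Syngr2 covers 9.45% of those of Tk1, and 3.48% of those of Paics lie in exons of its neighbour Ppat. The library kit keeps the strand, but whether the counting used it is not given in the sources used here.

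The start regions of the members are shown because the members moved together, and the letters of 3 known promoter elements were looked for in them. The 250 bases before each start were taken from RefSeq (GRCm38.p6), which held all 9 genes, Ctps with 2 starts. The CCAAT box (CCAAT, either strand) was found in 3 of the 9 members and in 33.8% of all 32851 start regions, and the E-box CACGTG, which reads alike on both strands, in 3 of 9 members and in 6.02% of all. None of 4 spellings of the E2F site (TTTCGCGC, TTTGGCGC, TTTCCCGC or TTTGCCGC, either strand) was found in these windows of the 9 members, and 1.86% of all regions held one. The regions of the 2 subunits of ribonucleotide reductase and of the 3 members with an E-box follow, 5′ to 3′ on the gene's strand, with the CCAAT box and the E-box in capitals. They lie at chr7:102441445-102441694 (Rrm1, plus strand), chr12:24708004-24708253 (Rrm2, plus), chr5:30073626-30073875 (Tyms, minus), chr5:76951052-76951301 (Paics, plus) and chr9:108560186-108560435 (Impdh2, plus).
Rrm1: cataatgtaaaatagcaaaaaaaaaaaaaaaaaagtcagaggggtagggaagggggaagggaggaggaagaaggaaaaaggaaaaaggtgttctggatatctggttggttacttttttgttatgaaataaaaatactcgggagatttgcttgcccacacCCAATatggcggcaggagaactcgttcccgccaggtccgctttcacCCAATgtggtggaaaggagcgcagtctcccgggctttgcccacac
Rrm2: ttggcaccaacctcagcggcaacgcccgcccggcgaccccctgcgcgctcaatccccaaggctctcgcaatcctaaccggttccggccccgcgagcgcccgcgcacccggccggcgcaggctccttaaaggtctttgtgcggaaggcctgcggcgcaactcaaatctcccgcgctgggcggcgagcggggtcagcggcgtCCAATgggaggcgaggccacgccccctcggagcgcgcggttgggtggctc
Tyms: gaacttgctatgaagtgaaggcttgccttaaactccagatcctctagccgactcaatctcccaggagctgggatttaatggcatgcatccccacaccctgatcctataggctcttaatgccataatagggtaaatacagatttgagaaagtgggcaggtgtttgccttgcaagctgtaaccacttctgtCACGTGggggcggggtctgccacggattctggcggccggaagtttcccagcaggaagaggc
Paics: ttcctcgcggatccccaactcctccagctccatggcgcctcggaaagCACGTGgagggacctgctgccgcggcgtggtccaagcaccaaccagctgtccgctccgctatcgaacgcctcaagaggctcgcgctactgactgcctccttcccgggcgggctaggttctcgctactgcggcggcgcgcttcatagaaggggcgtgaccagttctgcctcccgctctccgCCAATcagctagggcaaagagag
Impdh2: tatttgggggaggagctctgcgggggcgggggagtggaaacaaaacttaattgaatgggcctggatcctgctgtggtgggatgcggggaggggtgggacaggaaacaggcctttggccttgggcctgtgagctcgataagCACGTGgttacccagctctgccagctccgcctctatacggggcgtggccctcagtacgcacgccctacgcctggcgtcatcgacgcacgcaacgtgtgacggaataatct
The region of Rrm1 held 2 CCAAT boxes, whose first bases were 91 and 45 bases before the start, and that of Rrm2 held 1, 50 bases before the start. The regions of these partner subunits differed in base composition, with 46% G or C for Rrm1 and 72.4% for Rrm2. The E-box began 61 bases before the start of Tyms, 110 before that of Impdh2 and 203 before that of Paics, which also had a CCAAT box 23 bases before its start. A match of letters is a description and no sign that a factor binds there.

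The libraries held between 15918745 and 24180207 estimated counts, and 3 counts corresponded to between 0.123 and 0.187 CPM. Mast cell markers were abundant in all of them, taken as a sum over the 8 markers listed. This sum reached 43291 CPM for PMC-303, 40045 CPM for PMC-306 and 46567 to 73195 CPM over the primary cultures. By limma 3 of the 8 (Fcer1a, Kit and Il1rl1) were called lower in the lines, and 0 were called higher. Among the 5 not called, Hdc in PMC-303 was above its primary range (42.4 CPM against 6.19 to 18.1 CPM). Gata2 in PMC-306 was above its range too (662 CPM against 495 to 600 CPM). Ms4a2 and Cma1 were below theirs in PMC-306, and Cpa3 lay within its range in both lines. Defining markers of other cells were near 0, as all 4 B cell, all 6 granulocyte, all 6 fibroblast and mesothelial and 5 of 6 T cell markers stayed under 1 CPM in every library. Of 9 macrophage markers, 5 were under 1 CPM in every library, and C1qb was at 0 throughout. Icam2 was the one called by limma, higher in the lines, at 1.77 CPM (PMC-303) and 10.6 CPM (PMC-306) against 0.0879 to 1.1 CPM over the primary cultures (log2 difference 3.22 ± 0.85, SE, adjusted p = 0.0193). Lyz2, which was not called, went the other way. It was at 0.247 CPM (PMC-303) and 1.13 CPM (PMC-306), below the primary range of 1.18 to 18 CPM. Cd68 lay within its primary range in both lines. Adgre1 in PMC-303, at 2.1 CPM, was below its primary range of 3.37 to 46.4 CPM. The sum of this list was 8.93 CPM in PMC-303, from 7.75 to 68.9 CPM over the primary cultures and 452 CPM in PMC-306, where 426 CPM came from Adgre1 alone, which was picked out after its values were seen. The part of these differences in the results below was not tested.

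All 9 members were expressed at higher levels in the lines than in primary WT PMCs. Values are CPM, counts divided by the library size after scaling by the trimmed mean of M values, and the lines were compared with the primary cultures by limma on log2(CPM + 0.1) across all 14529 genes with enough counts, with Benjamini-Hochberg adjustment. A gene was called at an adjusted p under 0.05. The 9 members all passed the filter and all 9 were called higher, against 18.3% of all genes tested (2665 genes), while 15.5% (2255 genes) were called lower. Scaling by total counts gave 3406 genes higher and 1665 lower and the deposited TPM 2368 and 974. The median log2 difference of all genes was -0.01, and 0.10 and 0.13 with these scalings. Each of the 9 also lay above all 6 primary cultures in both lines, as did 23.0% of all genes tested. The 5 deoxyribonucleotide members had log2 differences from 2.34 to 3.68 with a median of 2.53, and the 4 ribonucleotide members had log2 differences from 0.39 to 1.06 with a median of 0.95, beside a median of -0.01 over all genes tested. A larger share of cells holding a transcript and more of it per cell cannot be told apart in RNA from whole cultures.

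**Figure D1:**
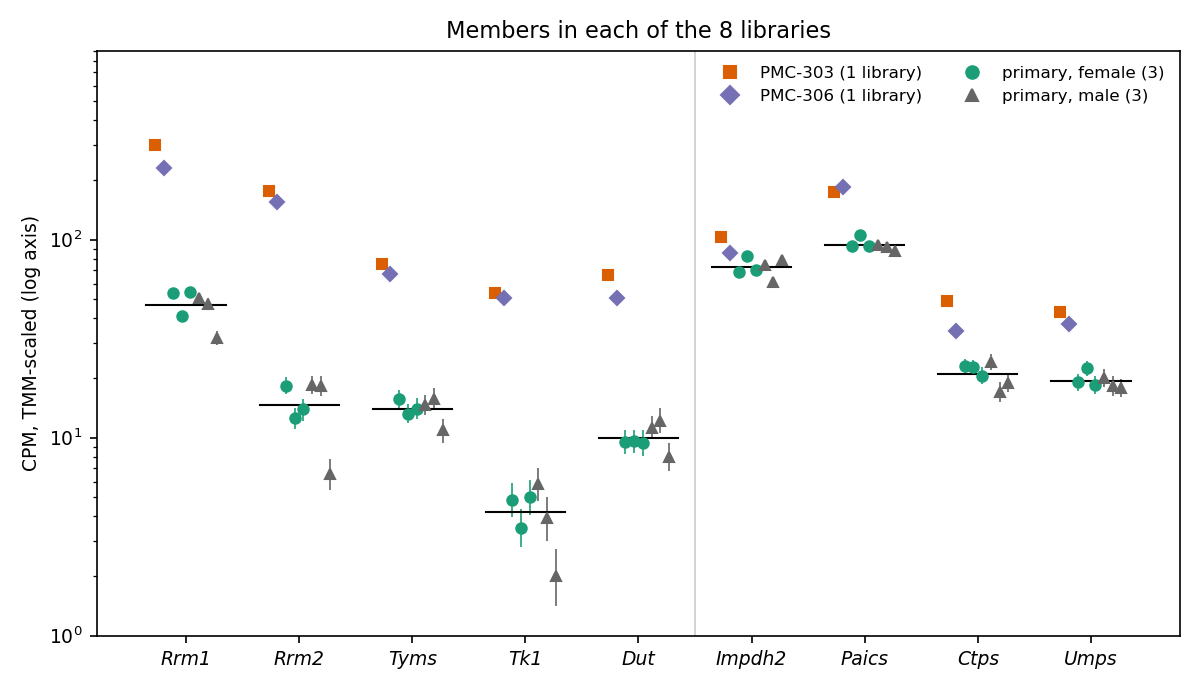
CPM of the 9 members in each of the 8 libraries on a log axis, with 95% Poisson counting intervals as vertical lines and the mean of the 6 primary cultures as a horizontal bar; deoxyribonucleotide members are left of the grey line and ribonucleotide members right of it. The squares and diamonds of the lines lie far above the primary cultures for Rrm1, Rrm2, Tyms, Tk1 and Dut, and close above them for Impdh2.

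Ribonucleotide reductase was among the most changed enzymes, and its small subunit more so than its large one. Rrm2 was at 176 CPM (PMC-303) and 155 CPM (PMC-306), while the primary cultures ranged from 6.56 to 18.4 CPM with a median of 16.1 CPM. Both lines were thus far above the highest primary culture, by 9.51-fold and 8.37-fold. The log2 difference of Rrm2 was 3.57 ± 0.37 (SE, adjusted p = 0.000251, limma, n = 2 and 6), which ranked 128 of 14529 genes. Rrm1 was at 301 CPM (PMC-303) and 230 CPM (PMC-306), against 32 to 54.4 CPM (median 49 CPM) over the primary cultures. This is a log2 difference of 2.52 ± 0.21 (SE, adjusted p = 0.000104, limma). As Rrm2 rose more, the ratio of Rrm2 to Rrm1 moved up within each line, to a log2 ratio of -0.77 in PMC-303 and -0.57 in PMC-306 from -1.72 ± 0.34 (SD, n = 6) in the primary cultures.

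The enzymes that supply thymidylate rose as well. Tk1, the salvage enzyme, was the member with the largest log2 difference. It was at 53.5 CPM (PMC-303) and 50.7 CPM (PMC-306), against 1.99 to 5.82 CPM (median 4.39 CPM) over the primary cultures, which corresponds to 38 to 114 counts in a primary library. Its log2 difference was 3.68 ± 0.35 (SE, adjusted p = 0.000186, limma), rank 105 of 14529. Tyms, the de novo enzyme, was at 75.1 CPM (PMC-303) and 66.8 CPM (PMC-306), against 10.9 to 15.7 CPM (median 14.3 CPM) over the primary cultures. With a log2 difference of 2.34 ± 0.15 (SE, adjusted p = 5.40e-05, limma) it rose least of the 5, but had the smallest error among them. Dut was at 66.1 CPM (PMC-303) and 50.5 CPM (PMC-306), against 7.97 to 12.2 CPM (median 9.57 CPM) over the primary cultures. The groups did not overlap, and the log2 difference of Dut was 2.53 ± 0.17 (SE, adjusted p = 6.87e-05, limma).

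The ribonucleotide members rose by about one doubling or less. Umps was at 43.1 CPM (PMC-303) and 37.5 CPM (PMC-306), against 17.8 to 22.4 CPM (median 18.8 CPM) over the primary cultures. The log2 difference was 1.06 ± 0.11 (SE, adjusted p = 0.000248, limma). Ctps was at 48.9 CPM (PMC-303) and 34.4 CPM (PMC-306), against 17 to 24.1 CPM (median 21.7 CPM) over the primary cultures. Its log2 difference of 0.97 ± 0.17 (SE, adjusted p = 0.00315, limma) was 1.22 without PMC-306 and 0.72 without PMC-303. Paics, the member with the highest CPM in every primary culture, was at 175 CPM (PMC-303) and 184 CPM (PMC-306), against 87.9 to 106 CPM (median 92.7 CPM) over the primary cultures. For Paics the log2 difference was 0.93 ± 0.08 (SE, adjusted p = 0.000112, limma).

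Impdh2 changed least and was the one member whose call depended on the choice of libraries. It was at 103 CPM (PMC-303) and 85.8 CPM (PMC-306), against 60.9 to 82.4 CPM (median 72 CPM) over the primary cultures. PMC-306 was thus only 1.04-fold above the highest primary culture. The log2 difference of Impdh2 was 0.39 ± 0.12 (SE, adjusted p = 0.0398, limma), rank 3479 of 14529. Without PMC-303 it was 0.25 with an adjusted p of 0.262, and the call was also lost when female culture 1, female culture 3, male culture 1 or male culture 2 was left out (adjusted p from 0.0509 to 0.0708).

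**Figure D2:**
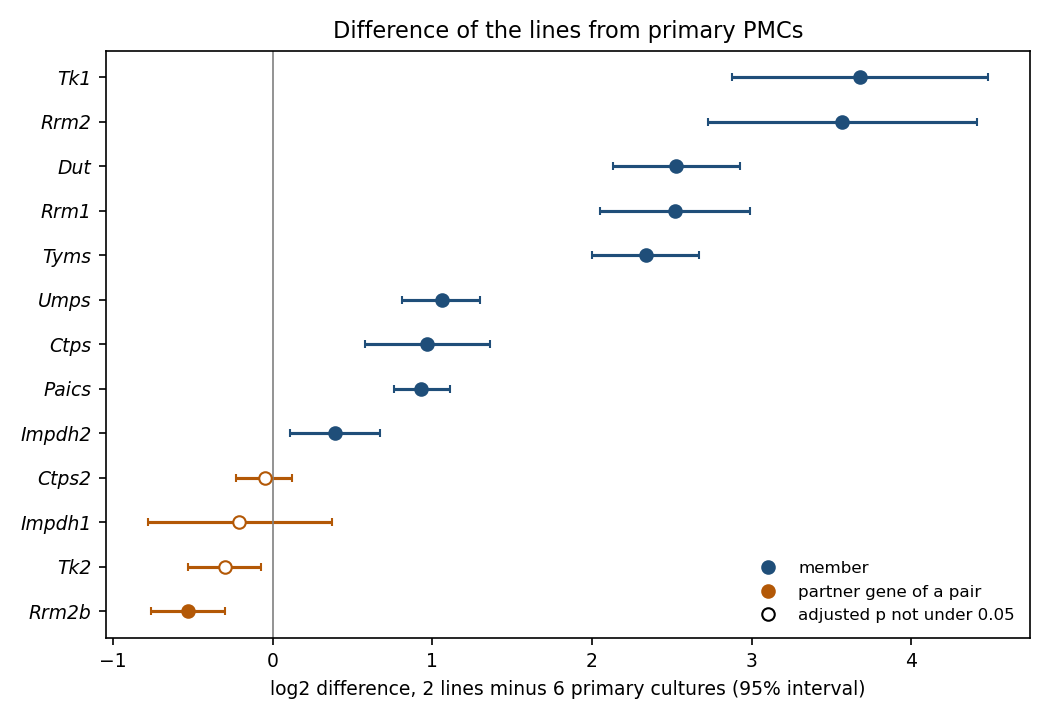
Log2 difference between the 2 lines and the 6 primary cultures with its 95% interval from limma, for the 9 members (blue) and the partner genes of the pairs (orange), with open points where the adjusted p was not under 0.05. The 9 members all lie above 0, Tk1 and Rrm2 at 3.68 and 3.57, whereas Impdh1, Tk2, Rrm2b and Ctps2, which turns to 0.06 with total counts and 0.05 in deposited TPM, lie below 0.

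The primary cultures of each sex gave the same picture when they were used alone. Against the 3 female cultures the log2 differences ranged from 0.36 for Impdh2 to 3.53 for Tk1, and against the 3 male cultures from 0.41 to 3.83 for the same genes. In each case 8 of 9 members were called by limma, and Impdh2 was not, with an adjusted p of 0.136 against female and 0.112 against male cultures.

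As each line is 1 library, the lines were also placed by size against the mean of the primary cultures, with no test. In PMC-303, 7 of 9 members were at least 2-fold above this mean, as were 9.86% of all genes tested. In PMC-306, 5 of 9 members reached 2-fold, beside 9.66% of all genes, and these were the 5 deoxyribonucleotide members. Tk1 was 12.5-fold and Rrm2 11.9-fold above the primary mean in PMC-303, and 11.8-fold and 10.5-fold in PMC-306. Paics and Umps came near 2-fold in PMC-306 (1.96-fold and 1.93-fold), while Ctps was at 1.63-fold and Impdh2 at 1.19-fold.

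PMC-306 and PMC-303 were also set side by side, with no test. Of the 9 members 0 were 2-fold apart between the lines, beside a share of 13.9% among all genes tested, and nothing is read from a share over 9 genes. PMC-306 was the lower line for 8 of the 9, and the share over all genes was not computed. It was also the lower line for all 12 proliferation markers listed. The widest gap among the members was that of Ctps, with a log2 difference of -0.51 between PMC-306 and PMC-303. Ctps was at 48.9 CPM (95% Poisson interval 46.2 to 51.8) in PMC-303 and 34.4 CPM (31.9 to 37) in PMC-306. Rrm1 and Dut followed with -0.39 each, and Rrm1 was at 301 CPM (294 to 308) against 230 CPM (224 to 237). The intervals of Tk1 overlapped between the lines, from 50.7 to 56.5 CPM in PMC-303 and from 47.6 to 53.9 CPM in PMC-306. Paics alone was higher in PMC-306, by 0.07 on the log2 scale, and its intervals overlapped too. These intervals cover counting error only and say nothing of how a line varies from culture to culture.

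Among the primary cultures the members varied to different degrees. The coefficient of variation over the 6 cultures was between 6.52% (Paics) and 12.9% (Ctps) for the ribonucleotide members, and between 13% (Tyms) and 32.3% (Rrm2 and Tk1) for the deoxyribonucleotide members. In an alternative chosen after seeing the data, the ranges overlapped without male culture 3, at 6.24% (Paics) to 13% (Ctps) and 7.33% (Tyms) to 19.9% (Tk1), and Rrm2 was at 17.6% and Rrm1 at 11.1%. They also overlapped without female culture 1, where Tyms was at 13.4% and Ctps at 13.8%. Male culture 3 had the lowest value of 7 of the 9 members, including all 5 deoxyribonucleotide members. There Rrm2 was at 6.56 CPM, beside 12.5 to 18.4 CPM in the other cultures, and Tk1 at 1.99 CPM (38 counts). The 12 proliferation markers listed summed to 346 CPM in the same culture and to between 439 and 577 CPM in the other 5, and the part of this in the members' values was not tested. Without male culture 3 the log2 differences between lines and primary cultures were 3.35 for Rrm2, 3.49 for Tk1, 2.42 for Rrm1, 2.47 for Dut and 2.27 for Tyms, and all 9 members were called by limma.

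Female and male primary cultures did not differ detectably in any member. By limma 0 of the 9 members were called, and 0 of 9 had an unadjusted p under 0.05, in a comparison that called 0.0438% of 13710 genes. With voom weights 0 of 9 were called as well. Rrm2 was at 14.9 ± 3.04 CPM in female and 14.4 ± 6.83 CPM in male cultures (SD, n = 3 each), a log2 difference of 0.17 with a 95% interval from -0.81 to 1.15. Dut, the one member with a lower mean log2 level in females, was at 9.52 ± 0.074 CPM in female and 10.5 ± 2.24 CPM in male cultures, with an interval from -0.54 to 0.31. For Paics the interval was narrowest, from -0.09 to 0.27, so that a 2-fold difference between the sexes lay outside it. The direction for Rrm2, Tk1 and Tyms, higher in females, turned when male culture 3 was left out.

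Levels were compared between genes in TPM, which takes transcript length into account. Gene TPM includes transcripts annotated as not coding. This matters for Tyms, whose coding transcript Tyms-201 held 27.1% to 39.8% of its count in the primary cultures. In PMC-303 it held 33.4% and in PMC-306 32.7%. In the primary cultures Paics (50.6 ± 6.15 TPM, SD, n = 6) and Impdh2 (45.3 ± 4.44 TPM) stood first, and their ranges overlapped. Rrm1 followed at 15.3 ± 3.48 TPM, clearly below, then Tyms at 12.6 ± 3.86 TPM and Dut at 11.3 ± 2.35 TPM, which overlapped with Rrm1 and with each other. Ctps was at 8.83 ± 1.48 TPM, Rrm2 at 7.74 ± 2.65 TPM, Umps at 5.81 ± 0.846 TPM and Tk1 at 3.56 ± 1.27 TPM, each overlapping with its neighbour in this order. In the lines the order was different. Rrm2 was first in PMC-303 at 108 TPM, before Paics at 101 TPM and Rrm1 at 99.1 TPM. In PMC-306 Paics was at 110 TPM and Rrm2 at 100 TPM, followed by Tyms at 77.3 TPM and Rrm1 at 75 TPM. Umps was last in the lines, where Tk1 stood above it, at 14 TPM in PMC-303 and 12.6 TPM in PMC-306.

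Summed over each group, with all transcripts of a gene included, the balance between the groups turned. The 5 deoxyribonucleotide members made up 50.5 ± 12.2 TPM (SD, n = 6) in the primary cultures, 418 TPM in PMC-303 and 364 TPM in PMC-306. The 4 ribonucleotide members made up 111 ± 11.6 TPM in the primary cultures, 206 TPM in PMC-303 and 200 TPM in PMC-306. The ratio of the first sum to the second was between 0.309 and 0.58 in the primary cultures, 2.03 in PMC-303 and 1.82 in PMC-306.

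**Figure D3:**
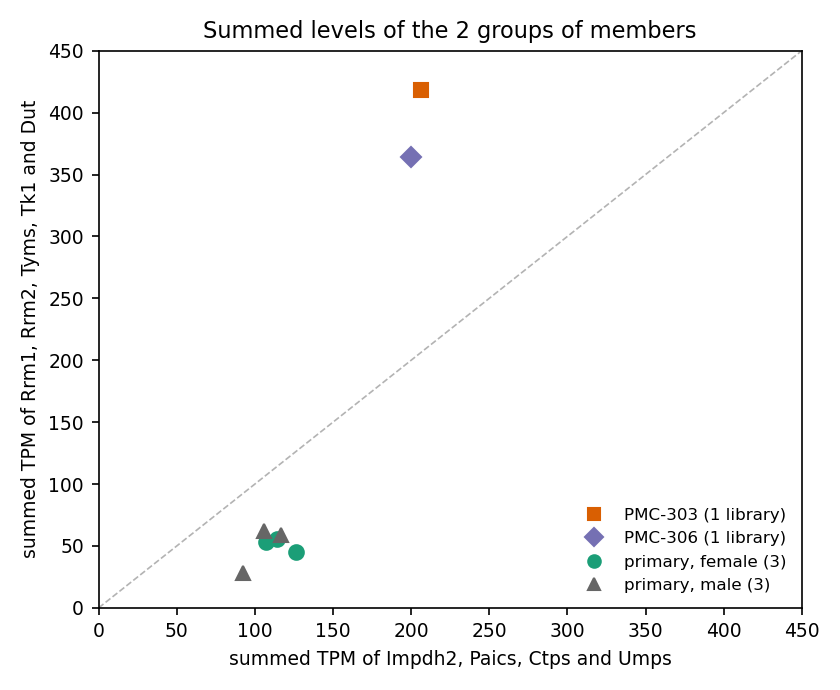
Summed TPM of the 5 deoxyribonucleotide members against the summed TPM of the 4 ribonucleotide members, 1 point per library, with the line of equal sums dashed. The 6 primary cultures lie below the dashed line, with ratios from 0.309 to 0.58, and both lines lie above it at 2.03 and 1.82.

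Several members have a partner whose product does related work, and 5 such pairs are given as log2 ratios of CPM + 0.1 within each library, with an exact two-sided permutation test over all 28 ways to choose 2 of 8 libraries, which can give no p below 0.0357. All 5 pairs reached this p (adjusted p = 0.0357 over the 6 pairs tested, exact permutation test), with the ratio of both lines on the same side of all 6 primary cultures. In deposited TPM 0 of the 5 passed (adjusted p from 0.0536 to 0.129, exact permutation test). With p limited in this way, whether a pair passes after adjustment depends on how many other pairs reach the lowest p. The differences in log2 ratio in TPM, with those in CPM in brackets, were 1.31 (1.05) for Rrm2/Rrm1, 4.33 (4.09) for Rrm2/Rrm2b and 3.90 (3.98) for Tk1/Tk2. They were 0.56 (0.59) for Impdh2/Impdh1 and 1.02 (1.02) for Ctps/Ctps2. The pairs share members and libraries and are not independent.

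Rrm2b encodes the small subunit of ribonucleotide reductase that serves DNA repair and mitochondrial DNA outside S phase, and it moved against Rrm2. It was at 29 CPM (PMC-303) and 28.8 CPM (PMC-306), below all primary cultures, which ranged from 37.5 to 48.1 CPM. Its log2 difference was -0.53 ± 0.10 (SE, adjusted p = 0.00457, limma). The log2 ratio of Rrm2 to Rrm2b was 2.60 in PMC-303 and 2.42 in PMC-306, and -1.58 ± 0.61 (SD, n = 6) in the primary cultures, so that Rrm2b counts exceeded Rrm2 counts in all primary cultures and were fewer in both lines. The ratio was lowest, at -2.66, in male culture 3.

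Tk2, the mitochondrial thymidine kinase, was at 36.8 CPM (PMC-303) and 39.2 CPM (PMC-306), against 41.5 to 52.5 CPM over the primary cultures. Its log2 difference of -0.30 ± 0.10 (SE) was not called (adjusted p = 0.0501, limma). The log2 ratio of Tk1 to Tk2 was 0.54 in PMC-303 and 0.37 in PMC-306, and between -4.50 and -3.06 in the primary cultures. The 2 thymidine kinases thus exchanged their order in CPM between primary cultures and lines.

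Ctps and Impdh2 each have an isozyme gene that was not called. Ctps2 was at 39.8 CPM (PMC-303) and 39.9 CPM (PMC-306), within the primary range of 37.3 to 43.6 CPM, and its log2 difference was -0.05 with a 95% interval from -0.23 to 0.12 (0.06 with total counts and 0.05 in deposited TPM). The log2 ratio of Ctps to Ctps2 was 0.29 in PMC-303, -0.21 in PMC-306 and between -1.30 and -0.71 in the primary cultures. Impdh1 was at 88.9 CPM in PMC-303, within the primary range of 60.4 to 98.4 CPM, and at 45.3 CPM in PMC-306, below it. Its log2 difference was -0.21 ± 0.25 (SE, adjusted p = 0.56, limma). The log2 ratio of Impdh2 to Impdh1 was 0.92 in PMC-306 but 0.22 in PMC-303, hardly above the highest primary culture at 0.18. Without PMC-306 the difference in this ratio was 0.24, and with it 0.59.

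**Figure D4:**
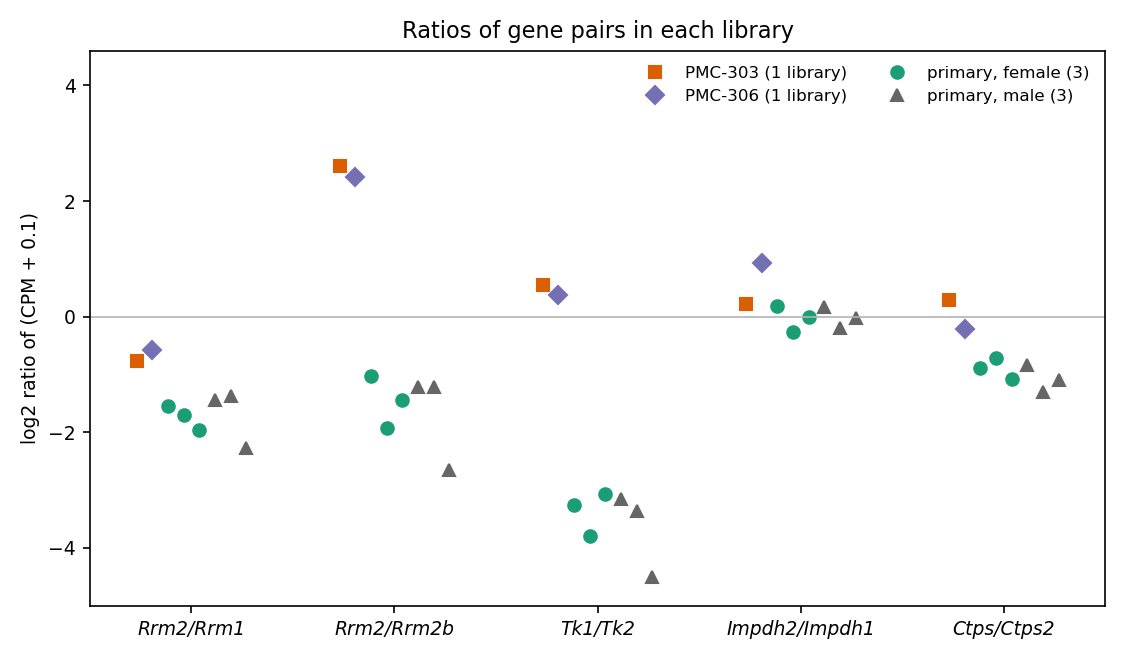
Log2 ratio of CPM + 0.1 for 5 gene pairs in each of the 8 libraries, with lines as squares and diamonds and primary cultures as circles (female) and triangles (male). Both lines lie above all primary cultures in all 5 pairs, by 4.09 on average for Rrm2/Rrm2b and by 0.59 for Impdh2/Impdh1.

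The other genes of the same pathways were followed in 6 lists, of which 53 genes were in the table and 48 were tested. Of these 48, limma called 23 higher and 3 lower, against 18.3% and 15.5% of all genes tested. In deoxyribonucleotide and thymidylate supply, 3 of 4 genes rose and 1, Rrm2b, fell, with a median log2 difference of 1.09. Those that rose were Dtymk, the kinase that follows Tyms and Tk1 (1.38 ± 0.12, SE), Dctpp1, which hydrolyses dCTP (1.26 ± 0.17), and Dctd, which deaminates dCMP to dUMP. In the supply of one-carbon units through folate, 5 of 6 genes rose and 1 fell, with a median of 1.30. Mthfd1l rose most (2.20 ± 0.15), followed by the serine hydroxymethyltransferases Shmt1 (1.43 ± 0.22) and Shmt2 (1.32 ± 0.10), while Mthfd2l fell (-1.02 ± 0.13).

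In de novo purine synthesis, the pathway of Paics and Impdh2, 7 of 11 genes rose and none fell, and the median log2 difference was 0.40. Prps1, which makes the ribose phosphate donor, rose by 1.43 ± 0.18 (SE), Ppat, the committed step and the neighbour of Paics, by 0.96 ± 0.11 and Pfas by 0.94 ± 0.07. Ppat and Paics thus differed by close amounts (0.96 and 0.93). In de novo pyrimidine synthesis, the pathway of Umps and Ctps, 2 of 6 genes rose, and none fell, with a median of 0.13. They were Cad, which carries the opening steps (0.85 ± 0.09), and Dhodh, the mitochondrial step before Umps (0.59 ± 0.16).

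In nucleotide salvage, the pathway of Tk1, 4 of 11 genes rose and 1 fell, with a median of 0.23. Dck, the deoxycytidine kinase, rose by 1.72 ± 0.19 (SE), Hprt, which salvages guanine and hypoxanthine, by 0.75 ± 0.08 and the uridine-cytidine kinase Uck2 by 0.59 ± 0.12, while Uckl1 fell by 0.40 on the log2 scale, a call that was lost in deposited TPM (adjusted p = 0.18, limma). Mtap, which starts the recovery of adenine from methylthioadenosine and which was picked out after its values were seen, was at 52.9 CPM (PMC-303) and 1.28 CPM (PMC-306), with 29.8 to 41.1 CPM in the primary cultures. In nucleotide breakdown 2 of 10 genes tested rose (Nudt1 by 0.64 ± 0.14 and Itpa by 0.46 ± 0.12), none fell, and the median was -0.02.

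**Figure D5:**
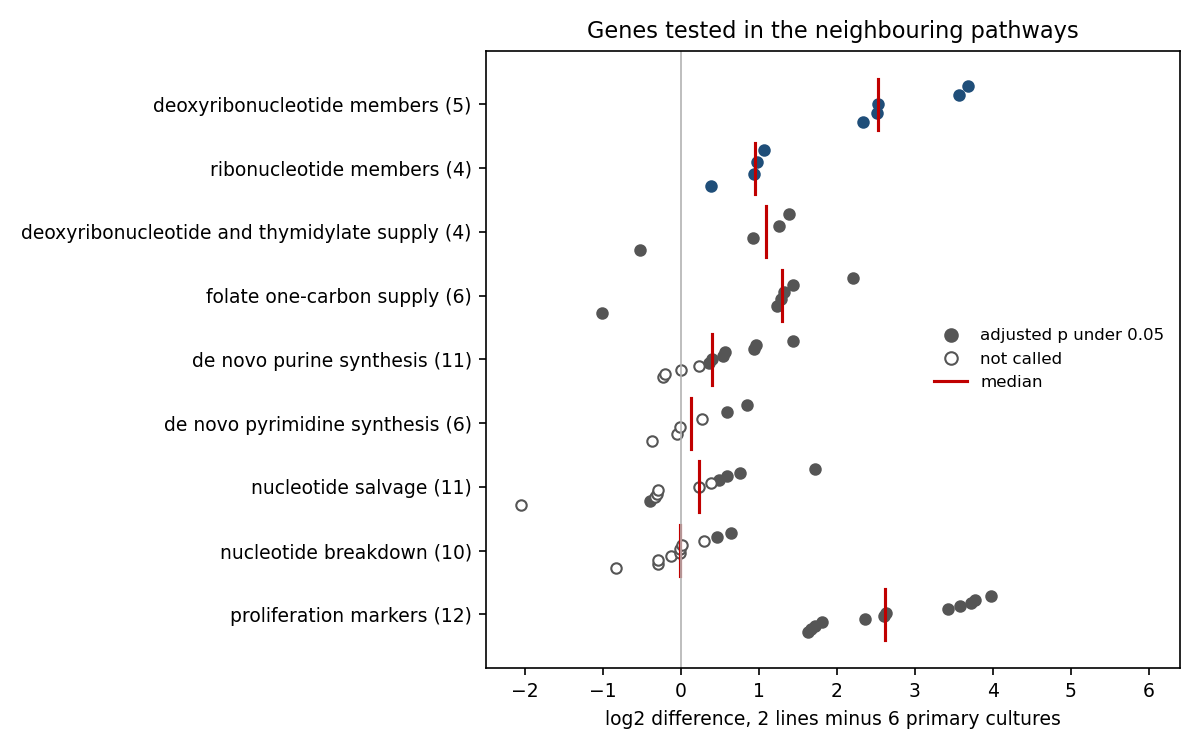
Log2 difference between the 2 lines and the 6 primary cultures for each gene tested, by list with the number of genes in brackets, with filled points for an adjusted p under 0.05 and a red bar at the median. The medians run from 2.53 for the deoxyribonucleotide members and 2.62 for the proliferation markers down to -0.02 for nucleotide breakdown.

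Genes of cell division rose in the same libraries. All 12 proliferation markers listed were called higher, with a median log2 difference of 2.62, and their CPM summed to 3748 in PMC-303, 3096 in PMC-306 and between 346 and 577 in the primary cultures. Ccna2 (3.98 ± 0.47, SE), Mki67 (3.77 ± 0.48) and Ccnb1 (3.72 ± 0.43) rose most, near Tk1 and Rrm2. Pcna, the sliding clamp of DNA replication, rose by 1.67 ± 0.09 and the helicase subunit Mcm2 by 1.81 ± 0.16, which lies between Umps and Tyms. How far the members' differences follow the number of dividing cells was not tested.

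By their pattern over the 8 libraries, the genes most like Rrm2 of 8750 compared (mean level 10 CPM or more, members left out) were Cdca8 (Pearson r = 0.999), H2ac4 (r = 0.999) and H3c11 (r = 0.997). Cdca8 encodes a subunit of the chromosomal passenger complex, and the others are histone genes. H2ac4 was at 161 CPM (PMC-303) and 140 CPM (PMC-306), against 3.79 to 12.6 CPM over the primary cultures. The genes most like Impdh2 were Cwf19l1 (r = 0.976), Med30 (r = 0.972) and Vdac1 (r = 0.967). Vdac1 was at 106 CPM in PMC-303, 88.7 CPM in PMC-306 against 67 to 90.1 CPM over the primary cultures. The 8 points share libraries and depth, and for Rrm2 they fall into 2 clusters, the lines and the primary cultures, so that r mostly restates the contrast and was given no p.

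The main transcript of most members was the same in all groups, though its share of the counts shifted in some. A single protein-coding transcript held at least 90.1% of the counts of Rrm1, Rrm2, Impdh2, Ctps and Umps in every library, and Dut-202 held between 87.5% and 95.8% of those of Dut in the primary cultures, 91.9% in PMC-303 and 94.2% in PMC-306. Rrm1-201 held 94.8% (PMC-303) and 95.3% (PMC-306), above the primary range of 90.1% to 94%. Rrm2-201 held 93.6% and 92.6%, below the primary range of 95.1% to 99.3%. Umps-201 held 95.8% and 94.9%, below the primary range of 98.1% to 100%. Tk1-201 held 88.1% and 82.6%, within the primary range of 77.6% to 92.2%. Paics was spread over 3 coding transcripts. Of these, Paics-203 held 23.5% (95% Wilson interval 22.2 to 24.8) in PMC-303 and 19.6% (18.3 to 20.9) in PMC-306, above the primary range of 0% to 16%, and Paics-201 held 19.9% (18.8 to 21.2) and 21.7% (20.4 to 23), below the primary range of 24.9% to 37.9%. Paics-202 was at 55.9% and 58.2%, with 56.5% to 61.2% in the primary cultures.

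Tyms differed from the other members in that much of its count lay in transcripts annotated as not coding. The coding transcript Tyms-201 held 33.4% (95% Wilson interval 31.3 to 35.6) in PMC-303 and 32.7% (30.3 to 35.3) in PMC-306, within the primary range of 27.1% to 39.8%. Tyms-206, which retains an intron, held 21.2% (19.4 to 23.1) and 23% (20.8 to 25.3), below the primary range of 24.8% to 39.8%. Tyms-205, annotated as a target of nonsense-mediated decay, held 24.7% (22.8 to 26.7) and 25.1% (22.8 to 27.4), within the primary range of 15.4% to 27.5%. The estimated counts of Tyms-201 were 610 in PMC-303 and 446 in PMC-306, and between 71.8 and 120 in the primary cultures. Shares were estimated by the authors' tool from shared reads and were not tested. Among pseudogenes named after a member, Impdh2-ps held at most 2.63% as many counts as Impdh2 in any library. Tyms-ps held at most 0.483% as many as Tyms. How many reads of pseudogenes were counted for their parent genes cannot be seen from these values. Pseudogenes under other names were not looked at.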

How the data were processed

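Per the labels and the study's methods, the authors prepared stranded total RNA libraries, trimmed reads with Trim Galore 0.6.7, aligned them to GRCm39 with STAR 2.7.9a and quantified them with Salmon 1.5.2. The deposited values are gene and transcript tables of estimated counts, without normalization, and a gene table of TPM, which the authors' pipeline scaled for length and library size. A spreadsheet program had turned 3.37% of the deposited gene count cells into dates or numbers with added points, among them 19 of the 72 cells of the members. These were set back to numbers, after which the members' counts equalled the sums of their transcripts to within rounding. In the 96722 TPM cells with added points the decimal point was placed with the help of the counts, which ties TPM to them there. Of these cells, 9367 were not read with 6 decimals. A negative binomial model was not fitted. The choice of limma 3.58.1 in R 4.3.3 was made because deposited count cells were known to hold text, and it was run on the restored counts.

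CPM were computed with library sizes from the trimmed mean of M values (30% of M and 5% of A values trimmed) over all 8 libraries. The filter asked for a CPM equal to about 10 counts in as many libraries as the smaller group holds, and 15 counts in all. The test used log2(CPM + 0.1), a trend of variance on level, no covariates, and Benjamini-Hochberg adjustment over every gene tested. The offset understates changes of low genes. The steps were run on simulated data in which all libraries had the same dispersion. That run therefore says nothing of how the lines differ from each other. The members and lists, and the rule for named genes (members, partners of a pair, the 3 largest called rises and falls of each list, Mki67, Pcna, Mcm2 and the 3 genes most like Rrm2 and Impdh2), were chosen with earlier results of these data known. Samples were grouped from their titles, and 0 columns were left without a sample. The primary libraries differed by more than sampling noise (chi-square over its degrees of freedom, 19.1 to 62.5), so none was counted as a duplicate. The labels call the primary cultures biological replicates, and the p-values of the lines rest on 1 library of each. A total of 2 listed genes, and with them 1 of the 6 pairs tested, are not reported here. Other scalings, offsets, filters, weights and subsets of libraries were tried. Python 3.11.15 with scipy 1.17.1 was used for the permutation tests.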

Additional observations from a re-analysis of the deposited data

Results flagged for a closer look

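Among the 6 primary cultures, the 9 members' CPM and the 5 pair ratios were searched for a culture set apart from the rest. Paics was at 106 CPM in female culture 2 and at 93.9 CPM in the next highest culture, a gap of 0.667 of the whole range, above Dixon's 95% critical value for 6 samples. Chance alone marks about 1 in 20 such sets, and 14 were searched.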

How the results depend on the processing

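Between lines and primary cultures, 8 members (all but Impdh2) were called under every alternative that tested them. Impdh2 lost its call without the filter (0.39, adjusted p = 0.0703), against the cultures of 1 sex and without 5 of the 8 libraries, with an adjusted p from 0.00667 to 0.262 over its 17 alternatives. Leaving out genes with rewritten cells kept 3 members, and all 3 were called, while 3093 of 10327 genes were called in place of 4920. The fewer genes called against female (2160) or male cultures only (3032) come with fewer samples. Scaling by total counts shifted the split of calls to 3406 higher and 1665 lower and deposited TPM to 2368 and 974, beside 2665 and 2255, and the members remained higher under both. Leaving out 1 library gave 3848 to 4664 genes called. Between the sexes 0 members were called under all alternatives, and 1 gene in place of 6 was called without genes with rewritten cells. The female minus male direction turned for Tyms in deposited TPM (-0.04), for Impdh2 without female culture 2 (-0.04) or male culture 2, for Dut without male culture 2, and for Rrm2, Tk1 and Tyms without male culture 3. Over single cultures left out it ranged from -0.06 to 0.12 for Impdh2, -0.30 to 0.01 for Dut, -0.32 to 0.42 for Rrm2, -0.11 to 0.64 for Tk1 and -0.09 to 0.18 for Tyms. The cause was not tested. With the replicate number as a block, 5 genes were called between the sexes, but cultures of 1 number share only that number (correlations of their deviations 0.405, -0.216 and 0.284). Of the 5 pairs given, 0 passed in deposited TPM (adjusted p from 0.0536 to 0.129) and 0 without either line, where no p could pass, and the number passing ranged from 0 to 5 over single libraries left out. No ratio changed direction, and in deposited TPM the differences in log2 ratio ran from 0.56 (Impdh2/Impdh1) to 4.33 (Rrm2/Rrm2b). Each line has 1 library, so that culture-to-culture variation within a line cannot be seen at any depth.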
